A study of Mus musculus with 7 samples.

Results

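The 7 genes described here are Id1, Id2, Id3 and Id4, which encode the Id proteins, and Hes1, Hes5 and Hes6 of the Hes family. They were taken by symbol from the 27998 genes of the count table, in which each was listed once, and they were followed across 11 annotated clusters of oligodendrocyte lineage cells (OLCs). The cells came from adult mice at P90 and formed 3 libraries, with 1 library per condition: control dOLCs, control vOLCs and ectopic vOLCs. Control mice carried Emx1-Cre:Sox10-GFP-TdTom, in which Emx1-Cre, active in the dorsal forebrain lineage, switches the Sox10 reporter from GFP to tdTomato, so that control dOLCs were sorted as TdTom+ and control vOLCs as GFP+. Ablated mice carried Sox10-GFP-DTA in addition, with which Sox10-expressing cells of the Emx1-Cre lineage make diphtheria toxin A and die, and ectopic vOLCs were the GFP+ cells of these mice. All groups were on a C57BL/6-B6CBA background and all carried Emx1-Cre and the reporter. The study's methods give 4 control and 2 ablated mice, whose cells are not told apart in the files. The labels name motor and cingulate cortex.

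Id proteins contain a helix-loop-helix domain but no basic region, so they bind E proteins and keep them from pairing with DNA-binding bHLH factors such as Olig1 and Olig2. Hes1 and Hes5 are transcriptional repressors induced by Notch signalling through the DNA-binding protein CSL (Rbpj), whereas Hes6 is a divergent member that can oppose Hes1. In the oligodendrocyte lineage, Id2, Id4, Hes1 and Hes5 are known as factors that hold precursors (OPCs) back from differentiation, Id genes being classical targets of BMP signalling.

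The kept cells numbered 5804 for control dOLCs, 925 for control vOLCs and 2562 for ectopic vOLCs, with 23078181, 4846391 and 14293675 UMIs. The median was 3489.5, 5022.0 and 5318.5 UMIs per cell in the same order, so the control dOLC library was the shallowest per cell. Of 9252 distinct barcodes, 39 occurred in 2 libraries. Levels are given as CPM, a gene's UMIs in a cluster of 1 library per 1000000 UMIs of the same cells. Intervals are exact 95% intervals of the count and hold the error of counting alone, the variation among animals being unmeasured. A comparison between conditions therefore has no test and no replicate check. In summed counts of a cluster, fewer cells that express a gene and less RNA per cell are separated here only by the share of cells with a UMI, which depends on depth.

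The clusters are those of the authors' annotation. OPCs numbered 853, 121 and 330 cells in the libraries in the order just given, and the cells of MOL5/6 (clusters MOL5/6a to d together) numbered 3777, 561 and 1842. The OPC markers Pdgfra, Cspg4, Ptprz1, Vcan and Cspg5 summed to 9903, 12596 and 10076 CPM in OPCs and to 145, 90.4 and 81.4 CPM in MOL5/6. In the other direction, the 6 oligodendrocyte markers, which are myelin genes, summed to 9749 CPM in OPCs of control dOLCs, 4355 in those of control vOLCs and 4395 in those of ectopic vOLCs. The summed markers of each cell type thus stood higher in the other cell type in control dOLCs than in the remaining 2 libraries. Where this RNA came from was not tested, and it is given below beside the values it moves with.

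All members are short genes. On GRCm38 (GENCODE M21), Hes5 lies at chr4:154960923-154962371 on the plus strand, where Gm20421 overlaps it on the other strand, and Hes1 at chr16:30064384-30067796, Id3 at chr4:136143497-136145755 and Id1 at chr2:152736251-152737410, also on the plus strand. Id4, at chr13:48261228-48266026 on the plus strand, is overlapped by 2 genes of the other strand. Id2 (chr12:25093799-25097140) and Hes6 (chr1:91411483-91414038) lie on the minus strand, and neither they nor Id1, Id3 and Hes1 overlap another gene. Promoter windows from RefSeq on GRCm38.p6 were found for 5 of the 7 members, namely Id2, Id3, Id4, Hes5 and Hes6. The windows of Id2 and Id3 and 1 of the 2 windows of Hes6 lie inside the gene spans just given, because their RefSeq starts are downstream of the first GENCODE start.

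The promoter of Hes5 is shown because Hes5 was the member with the most UMIs and a Notch target, so that the letters that CSL reads can be seen in place. The 250 bases before its start (chr4:154960673-154960922, plus strand) are printed 5′ to 3′, with matches to TGGGAA on either strand in capitals.

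Hes5: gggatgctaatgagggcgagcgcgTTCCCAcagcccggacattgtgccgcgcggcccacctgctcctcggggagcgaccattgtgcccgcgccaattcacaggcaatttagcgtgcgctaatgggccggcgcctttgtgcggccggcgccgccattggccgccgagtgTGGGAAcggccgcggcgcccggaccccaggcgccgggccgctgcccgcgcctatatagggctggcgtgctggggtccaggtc

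The 2 matches begin 226 and 82 bases before the start and face in opposite directions. Of 32851 windows of this length, 21.6% held at least 1 match to TGGGAA and 2.77% held 2 or more. The window of Id4 had 1 match, and those of Id2 and Id3 and both windows of Hes6 had 0. A match describes the letters only, and none of these files measures binding.

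Hes5 was carried by OPCs. Its level there was 477 CPM (451 to 504) in control dOLCs, 618 CPM (543 to 701) in control vOLCs and 464 CPM (426 to 504) in ectopic vOLCs, on 1253, 244 and 558 UMIs. A UMI of Hes5 was seen in 61.8%, 67.8% and 57.9% of OPCs, against 5.22%, 3.92% and 3.58% of MOL5/6 cells, at median depths of 2795.0, 3454.0 and 3421.5 UMIs in OPCs and 3491.0, 5069.0 and 5478.5 in MOL5/6. The shallower cells had the higher share in each library. After thinning of every cell to 1000 UMIs, they were 33.6%, 38.8% and 27.9% in OPCs, and in MOL5/6 they were 1.3%, 0.357% and 0.706%.

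The level of Hes5 fell off at the first step out of the OPC cluster. In COP/NFOL/MFOLa, the cluster of committed and newly formed cells (76, 13 and 22 cells), Hes5 stood at 14.0 CPM (5.65 to 28.9) in control dOLCs, and both vOLC libraries had 0 UMIs, which allows up to 34.4 CPM in control vOLCs and 20.1 CPM in ectopic vOLCs. In MOL5/6 it stood at 13.5, 7.88 and 6.34 CPM. The values of COP/NFOL/MFOLa and MOL5/6 in control dOLCs did not differ beyond their intervals, while those of OPCs lay above both in every library.

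Hes1 followed the same course. Its level in OPCs was 171 CPM (155 to 187) in control dOLCs, 187 CPM (147 to 235) in control vOLCs and 212 CPM (187 to 240) in ectopic vOLCs. In COP/NFOL/MFOLa it rested on 1, 2 and 1 UMIs, and in MOL5/6 on 51, 3 and 17 UMIs, or 3.44, 1.03 and 1.61 CPM. The level in OPCs over that in MOL5/6 was 49.7-fold in control dOLCs, 182-fold in control vOLCs, on 3 UMIs in MOL5/6, and 132-fold in ectopic vOLCs.

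Hes1 and Hes5 were also present in cycling OPCs, of which there were only 17, 3 and 11 cells. There Hes1 reached 203 CPM (108 to 347) in control dOLCs and 340 CPM (194 to 552) in ectopic vOLCs, and Hes5 reached 250 CPM (143 to 405) and 191 CPM (87.4 to 363). For Hes5, both intervals lay below those of non-cycling OPCs of the same library, and for Hes1 they overlapped them.

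Id2 was the Id gene with the highest level in OPCs. Its level was 156 CPM (141 to 172) in control dOLCs, 228 CPM (183 to 280) in control vOLCs and 204 CPM (179 to 231) in ectopic vOLCs, and a UMI was seen in 33.6%, 44.6% and 43.0% of OPCs. In COP/NFOL/MFOLa it fell to 8.02, 22.9 and 20.1 CPM on 4, 2 and 3 UMIs, and in MOL5/6 it stood at 11.2, 5.82 and 6.72 CPM. Over the MOL clusters of more than 20 cells, Id2 ranged from 3.74 CPM (MOL5/6d of control vOLCs, 1 UMI) to 13.4 CPM (MOL5/6b of control dOLCs), with no cluster near the OPC level.

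Id3 showed a smaller step on fewer counts. It reached 37.7 CPM (30.6 to 45.9) in OPCs of control dOLCs, 53.2 CPM (32.9 to 81.3) in those of control vOLCs and 56.6 CPM (43.9 to 71.7) in those of ectopic vOLCs. In MOL5/6 it stood at 6.67, 3.77 and 2.74 CPM, so that OPCs lay 5.65-fold, 14.1-fold and 20.6-fold higher.

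Hes6 differed from Hes1 and Hes5 in how far its level dropped. OPCs held 43.4 CPM (35.8 to 52.2) in control dOLCs, 20.3 CPM (8.75 to 39.9) on 8 UMIs in control vOLCs and 60.7 CPM (47.6 to 76.3) in ectopic vOLCs. In COP/NFOL/MFOLa of control dOLCs it was 34.1 CPM (19.9 to 54.6), with an interval that overlapped that of OPCs, and 21.1% of these cells had a UMI against 12.3% of OPCs, at median depths of 6685.5 and 2795.0 UMIs. The vOLC libraries had few counts of Hes6 in this cluster. Control vOLCs held 1 UMI, and ectopic vOLCs held 2 UMIs, or 22.0% (2.62 to 82.5) of their OPC level, so a fall at this step was seen there. In MOL5/6 Hes6 was at 14.9, 12.3 and 14.6 CPM. The OPC interval lay above that of MOL5/6 in control dOLCs and ectopic vOLCs and overlapped it in control vOLCs (8.64 to 17.1).

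**Figure D1:**
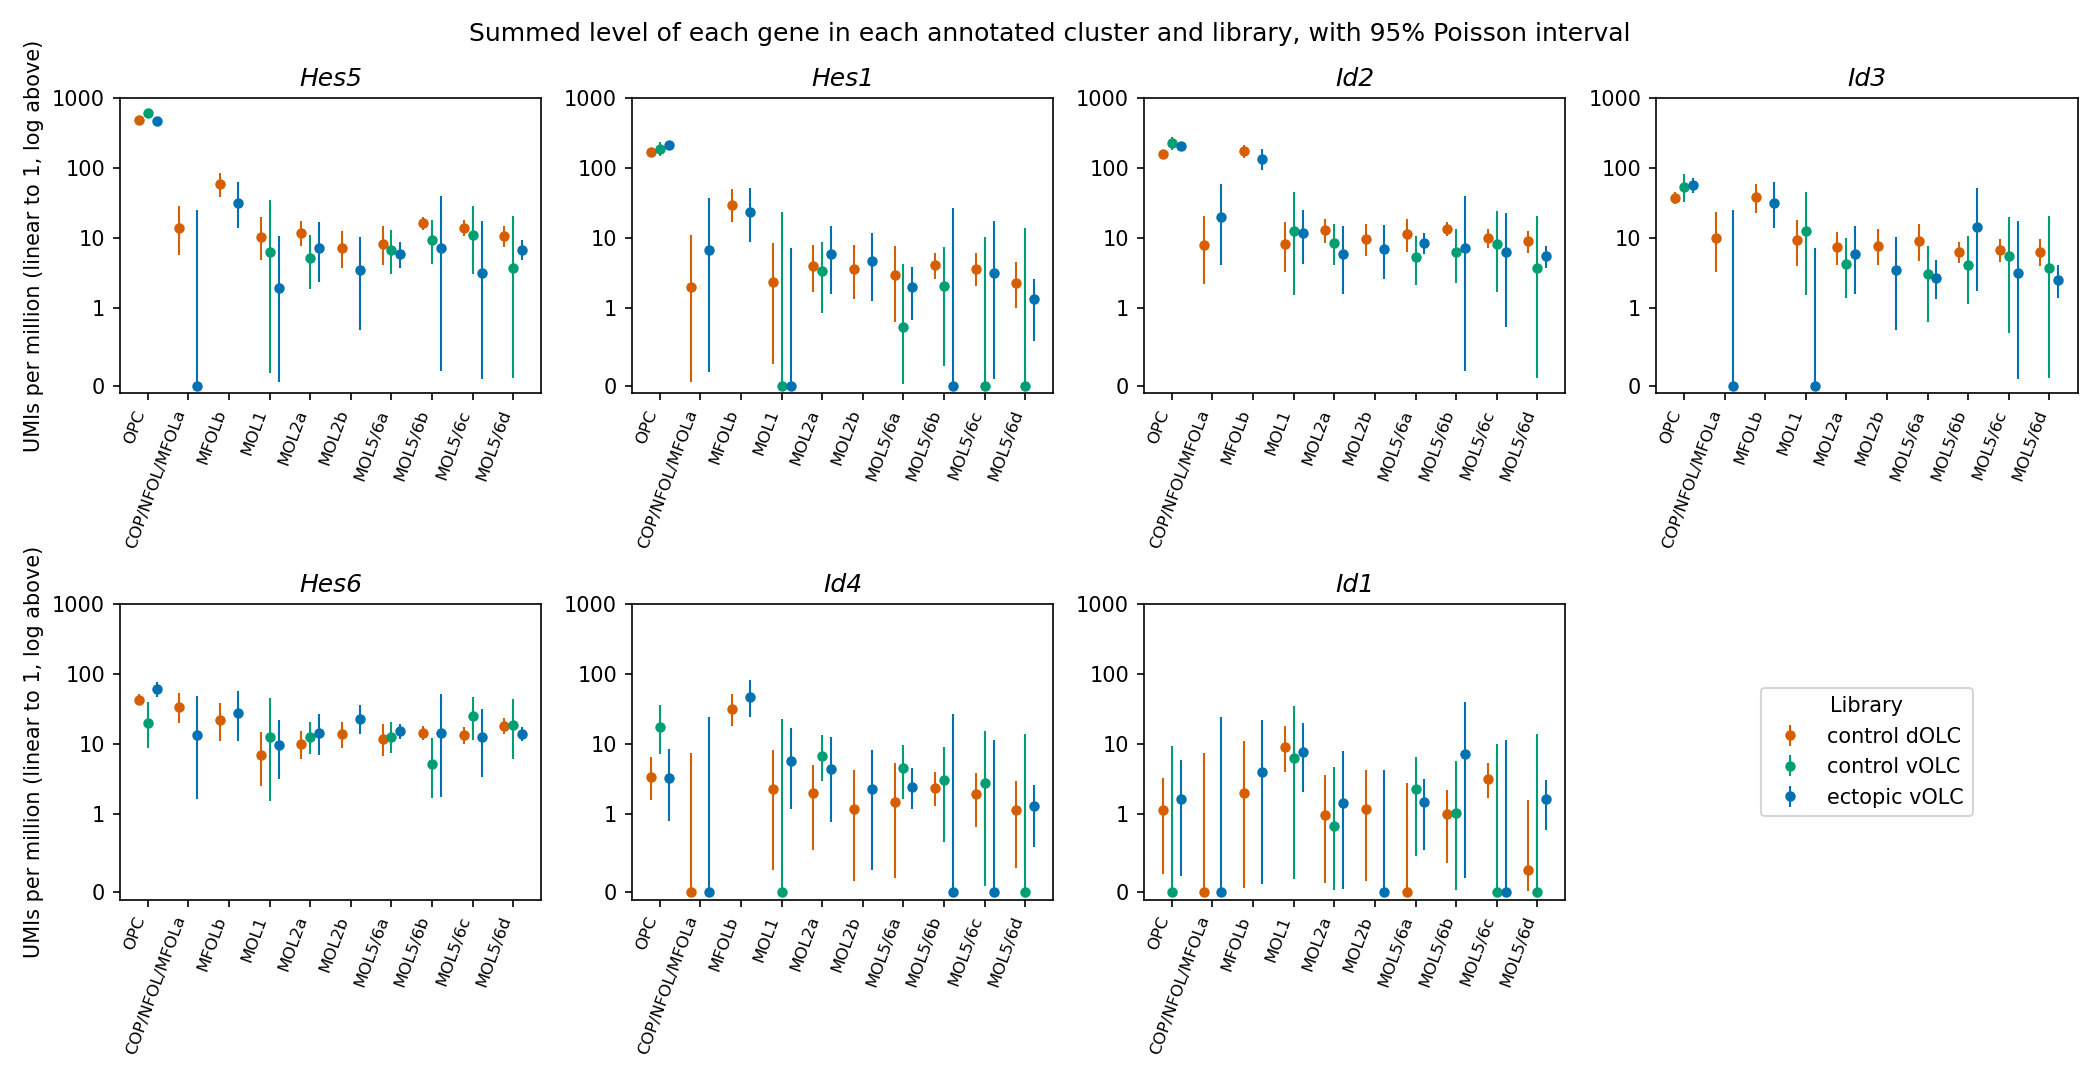
Level of each of the 7 genes (vertical axis, UMIs per 1000000, linear up to 1 and logarithmic above) in each annotated cluster (horizontal axis) and library (colours), for sums over at least 20 cells; bars are exact 95% Poisson intervals. Hes5, Hes1 and Id2 are high in OPCs and low in the MOL clusters, Hes6 drops less, and the highest points of Id4 are in MFOLb.

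Id4 and Id1 were scarce in OPCs. Id4 had 9, 7 and 4 UMIs there, or 3.43, 17.7 and 3.33 CPM, and the interval of control vOLCs (7.13 to 36.5) lay above the value in both other libraries but rested on 7 UMIs in 121 cells. In MOL5/6 Id4 stood at 1.89, 3.42 and 1.70 CPM, and in COP/NFOL/MFOLa at 0 UMIs in all 3 libraries. This allows up to 6.02, 34.4 and 20.1 CPM, above its levels in OPCs, so no fall is shown. Id1 had 3, 0 and 2 UMIs in OPCs, where 0 UMIs in control vOLCs allows up to 7.60 CPM.

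Id1 had its highest level on more than 5 UMIs in MOL1, with 9.26 CPM (4.00 to 18.3) in control dOLCs, 6.30 CPM (0.160 to 35.1) in control vOLCs and 7.72 CPM in ectopic vOLCs, on 8, 1 and 4 UMIs. In MOL5/6 it was 1.35, 1.37 and 1.61 CPM. MOL1 is also the cluster in which 12 immediate early genes such as Fos, Jun and Egr1, whose RNAs rise quickly after a stimulus or handling of cells, summed to 3001, 4323 and 2686 CPM, against 903, 809 and 779 CPM in MOL5/6. Their part in the level of Id1 was not tested. Cycling OPCs of control dOLCs held 4 UMIs of Id1 in 17 cells (62.4 CPM, 17.0 to 160).

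The highest levels of Id4 were found in the cluster annotated MFOLb, together with a second high level of Id2. MFOLb comprised 106, 8 and 43 cells. Id4 reached 32.0 CPM (18.3 to 52.0) in control dOLCs, 96.7 CPM (31.4 to 226) in control vOLCs and 47.7 CPM (24.7 to 83.3) in ectopic vOLCs, on 16, 5 and 12 UMIs. These lay above the intervals of MOL5/6 in all 3 libraries. Id2 reached 174 CPM (139 to 215), 77.4 CPM (21.1 to 198) and 135 CPM (93.6 to 189), and in control dOLCs it did not differ from OPCs beyond the intervals. Id3 stood at 38.0, 19.3 and 31.8 CPM, Hes5 at 58.0, 38.7 and 31.8 CPM, and Hes1 at 30.0, 19.3 and 23.9 CPM, the values of control vOLCs resting on 1 or 2 UMIs.

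The markers of MFOLb went against its label. Enpp6, a gene of newly formed oligodendrocytes, stood at 68.1, 77.4 and 15.9 CPM, against 816, 815 and 1125 CPM in COP/NFOL/MFOLa. Mog, a myelin gene, was present at 1880, 1819 and 2330 CPM. Astrocyte genes were present as well. Gja1, which encodes the gap junction protein connexin 43, was at 254, 406 and 195 CPM against 2.76, 1.71 and 2.55 CPM in MOL5/6. Aqp4, an astrocytic water channel, was at 140, 174 and 123 CPM, and Aldh1l1 at 44.0, 96.7 and 43.7 CPM. Of 6 listed astrocyte markers, 6, 5 and 6 had a UMI in MFOLb, Gfap being at 0 in control vOLCs, and their summed level was 2744, 3405 and 2206 CPM in MFOLb, 606, 666 and 605 CPM in OPCs and 200, 173 and 172 CPM in MOL5/6, where Slc1a2 and Aldoc made up most of it. The cluster is called MFOLb here after the annotation only.

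Of the 157 cells of MFOLb, 93 (59.2%) had a UMI of Aqp4, Gja1, Gfap or Aldh1l1, against 6.67% of OPCs and 3.66% of MOL5/6. In control dOLCs, the 59 MFOLb cells with such a UMI held Id2 at 233 CPM (183 to 293) and the 47 without at 75.2 CPM (41.1 to 126). In ectopic vOLCs, the 27 with held 179 CPM (120 to 257) and the 16 without held 56.0 CPM (18.2 to 131). Id4 stood at 41.5 CPM against 16.1 CPM in control dOLCs and at 61.6 CPM against 22.4 CPM in ectopic vOLCs, with overlapping intervals. Median depth was 5257.0 UMIs with and 3772.0 without in control dOLCs, so cells with a marker UMI were also the deeper ones, and the part of either in these levels was not tested. The cells without such a UMI had Id2 above the MOL5/6 interval too (9.55 to 13.0 CPM in control dOLCs). They were not free of other astrocyte genes. In control dOLCs they held Slc1a2 at 736 CPM, Aldoc at 672 CPM and Sox9 at 37.6 CPM, against 74.1, 117 and 1.62 CPM in MOL5/6 of the same library. This split was chosen after the data were seen.

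**Figure D2:**
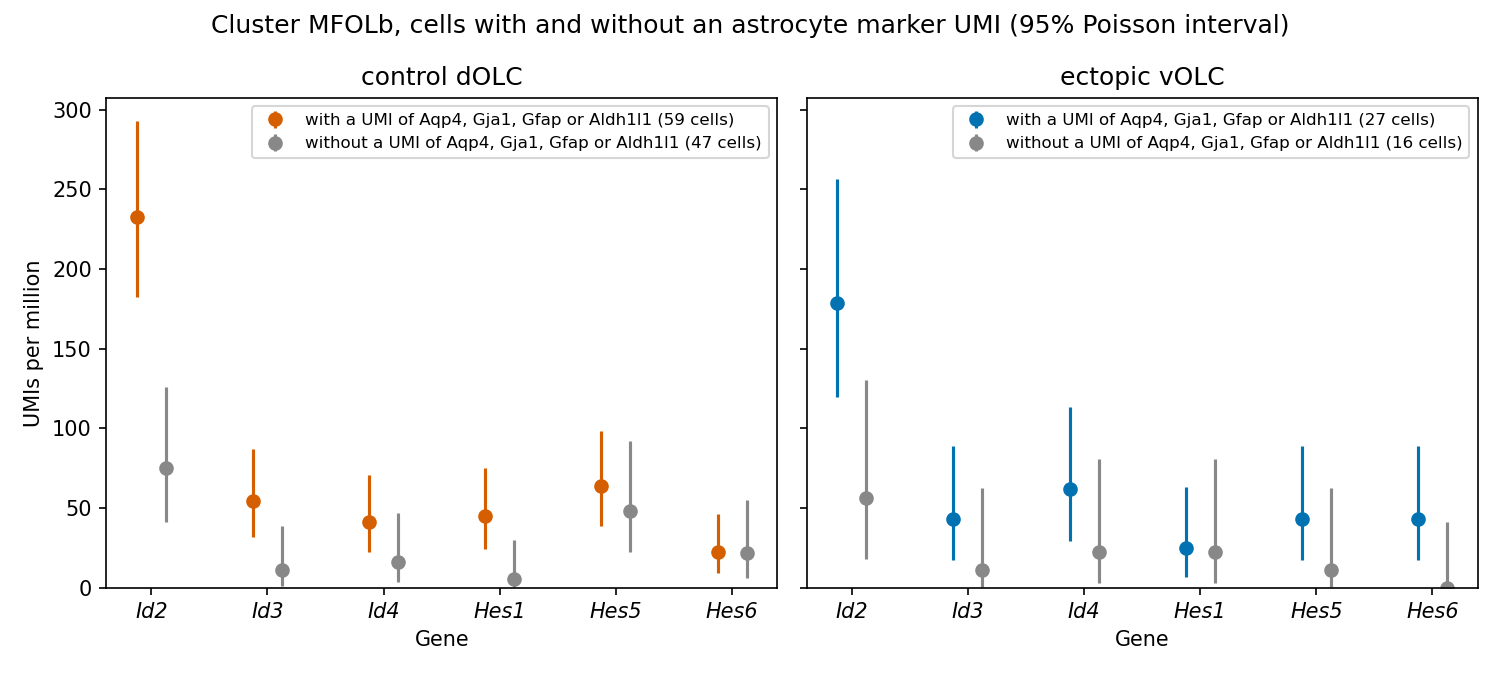
Level of 6 members (UMIs per 1000000) in MFOLb cells with (coloured) and without (grey) a UMI of Aqp4, Gja1, Gfap or Aldh1l1, in control dOLCs (59 and 47 cells) and ectopic vOLCs (27 and 16 cells); bars are exact 95% Poisson intervals. Id2 is higher in the cells with a marker UMI in control dOLCs, and in the other pairs the intervals overlap.

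Across all genes with at least 50 UMIs in OPCs and MOL5/6 together, 38.7% of 11437 were at least 1.5-fold higher in OPCs in all 3 libraries and 9.51% were at least 1.5-fold lower. All 6 members that had 50 UMIs (all but Id1) were among the higher ones. The intervals of Id2, Id3, Hes1 and Hes5 lay above 0 in all 3 libraries. For Id4 the interval covered 0 in control dOLCs and ectopic vOLCs, and for Hes6 in control vOLCs. Clusters were formed from the expression of these same cells, so this is a description.

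How much of a member remained in MOL5/6 was set beside the OPC markers of the same library. In control dOLCs, MOL5/6 held 2.01% (1.48 to 2.69) of the OPC level of Hes1, 2.84% (2.43 to 3.30) of that of Hes5, 7.16% (5.94 to 8.60) of that of Id2 and 17.7% (13.3 to 23.6) of that of Id3. The OPC markers of that library remained at between 1.10% (Pdgfra) and 1.92% (Cspg5). In ectopic vOLCs, Hes1 remained at 0.758% (0.435 to 1.24), Hes5 at 1.37% (1.04 to 1.76), Id2 at 3.30% (2.49 to 4.31) and Id3 at 4.85% (3.03 to 7.59), against 0.299% (Vcan) to 1.23% (Cspg5) for the markers. In control vOLCs, Hes1 remained at 0.548% (0.111 to 1.67), Hes5 at 1.27%, Id2 at 2.55% and Id3 at 7.08%, against 0.200% (Vcan) to 1.03% (Cspg5).

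Hes1 in MOL5/6 thus lay within the range of the OPC markers or had an interval that reached into it in all 3 libraries. Hes5 did so in both vOLC libraries (intervals 0.793 to 1.96 and 1.04 to 1.76) and lay above the range in control dOLCs. Id2 and Id3 lay above that range with their whole interval in all 3. Hes6 remained at 34.3% (27.2 to 43.4), 60.8% (27.8 to 152) and 24.0% (18.0 to 32.1).

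**Figure D3:**
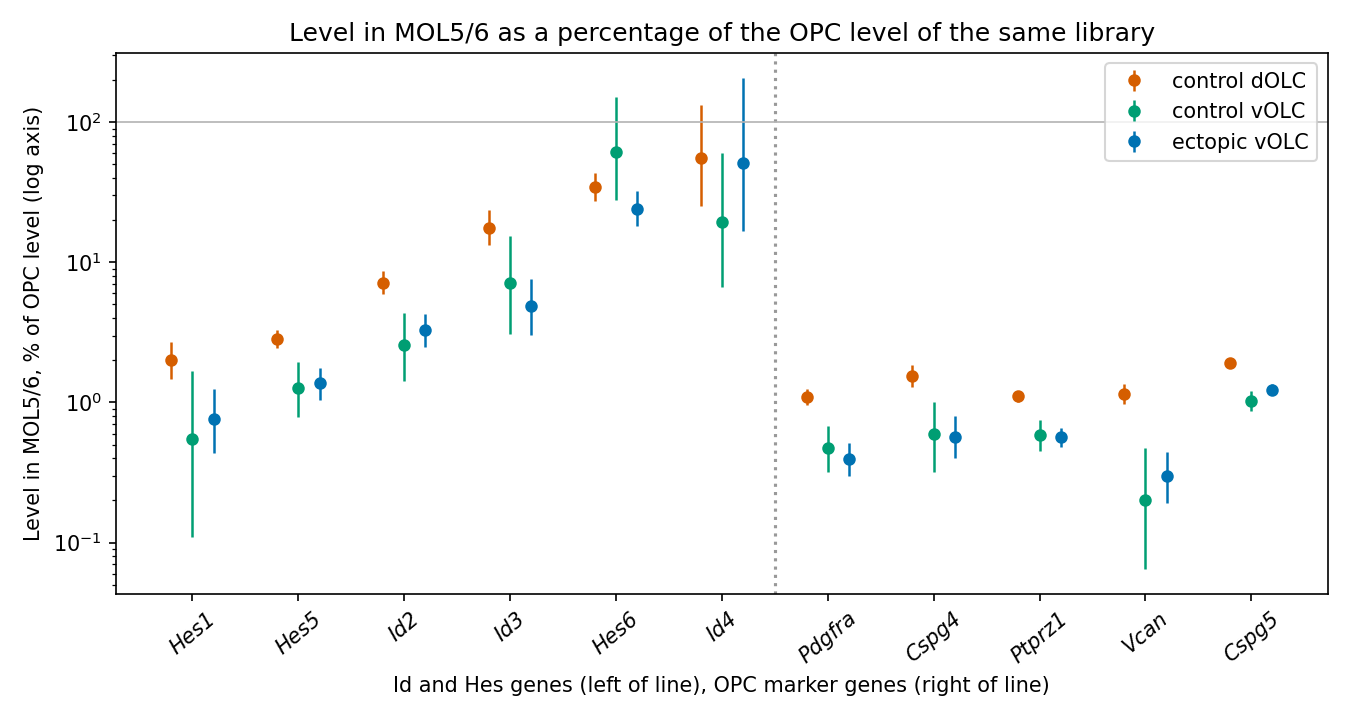
Level in MOL5/6 as a percentage of the level in OPCs of the same library (vertical axis, logarithmic) for 6 members (left of the dotted line) and 5 OPC marker genes (right), with exact 95% intervals, by library (colours). Hes1 lies among the OPC markers in both vOLC libraries and just above them in control dOLCs, where its interval reaches into their range, Id2 and Id3 lie above them and Hes6 well above, and control dOLCs give the highest percentage for most genes.

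The first comparison between conditions was of OPCs in ectopic vOLCs with OPCs of control dOLCs, the population that is ablated in the other mice. Among genes with at least 50 UMIs in the 2 libraries and detected in at least 10% of OPCs in either, 11.1% of 6110 differed by at least 1.5-fold. Of the 5 members past this filter (Id2, Id3, Hes1, Hes5 and Hes6), 1 did, which was Id3, on the threshold itself. Id3 passed the filter through the library in which it was higher, having a UMI in 15.5% of OPCs of ectopic vOLCs against 9.26% of those of control dOLCs, so nothing is read from the count. With TMM or median of ratios scaling, which lowered that ratio, 0 of the 5 members were past 1.5-fold. The median log2 ratio of all genes was 0.08.

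Taken one by one, the log2 ratio of ectopic vOLCs over control dOLCs in OPCs was 0.38 (0.15 to 0.62) for Id2, 0.58 (0.12 to 1.04) for Id3, 0.31 (0.09 to 0.54) for Hes1 and 0.48 (0.04 to 0.92) for Hes6. Hes5 did not differ beyond counting error, at −0.04 (−0.19 to 0.10). Without OPCs that had a UMI of another cell type marker, which left 141, 12 and 47 cells, Hes5 was at 0.63, past 1.5-fold, Id3 at −0.31 and Hes1 at −0.039. Leaving out only cells with a UMI of a marker near 0 in OPCs, a setting added after the data were seen, kept 783, 109 and 304 OPCs. Hes5 was then at −0.010, Id3 at 0.53 and Hes1 at 0.30. With each cell thinned to 1000 UMIs, Id3 was at −0.028, on 11 against 29 UMIs, and Hes1 at 0.044, while Hes6 was at 0.70. The cause was not tested.

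Against control vOLCs, the same OPCs gave another order. Hes5 was lower in ectopic vOLCs, with a log2 ratio of −0.41 (−0.63 to −0.19), and Hes6 was higher by 1.58 (0.53 to 2.85), the 8 UMIs of control vOLCs being the smaller count. Id2 (−0.16, −0.52 to 0.20), Id3 (0.09, −0.64 to 0.87) and Hes1 (0.18, −0.20 to 0.57) did not differ beyond counting error. By the 1.5-fold rule 1 of 5 members differed, Hes6, against 27.8% of 5721 genes, but Hes6 passed the filter through ectopic vOLCs alone, with a UMI in 18.5% of OPCs against 6.61% in control vOLCs. Without OPCs that had a UMI of another cell type marker, Hes5 was at −0.082, Hes6 at 0.95, Id2 at −0.75 and Id3 at −1.31, and as 1 member then passed the filter, 0 members were past 1.5-fold by the rule. This rested on 12 OPCs of control vOLCs and 47 of ectopic vOLCs. Leaving out only cells with a UMI of a marker near 0 in OPCs kept 109 and 304. Hes5 was then at −0.31, Hes6 at 1.83, Id2 at −0.047 and Id3 at 0.13. With cells thinned to 1000 UMIs, Id3 was at −0.80 and Hes5 at −0.61. The count was then still 1, but with Hes5, which was lower, in place of Hes6. On 22 and 3 thinned UMIs, Hes6 no longer passed the filter.

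The 2 control populations, from the same mice, differed as well. In OPCs of control vOLCs over control dOLCs, Id2 gave 0.55 (0.20 to 0.88), Hes5 0.37 (0.17 to 0.57) and Hes6 −1.10 (−2.35 to −0.07), whereas Id3 (0.50, −0.26 to 1.19) and Hes1 (0.14, −0.24 to 0.49) had intervals that covered 0. By the 1.5-fold rule 1 of 5 members differed, Hes6 again, against 22.9% of 5863 genes, and it passed the filter through control dOLCs alone (12.3% of OPCs against 6.61%). With cells thinned to 1000 UMIs 0 members were past 1.5-fold, and Hes1 was at −0.28. Without OPCs that had a UMI of another cell type marker 2 were, Id2 at 0.97 and Hes5 at 0.71. With only cells that had a UMI of a marker near 0 in OPCs left out, Id2 was at 0.47 and Hes5 at 0.30. Hes6, at −1.35, was then the 1 member past 1.5-fold. Of all genes past 1.5-fold here, 52.9% were lower in control vOLCs, and 64.9% with TMM scaling. No member was past 1.5-fold in the same direction in ectopic vOLCs against both controls. These comparisons share libraries and are not independent of each other.

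Measures that moved with these libraries in OPCs were the myelin RNA given above, highest in control dOLCs, and the immediate early genes, whose summed level was 1057 CPM in control dOLCs, 818 CPM in control vOLCs and 1333 CPM in ectopic vOLCs. Of 6 immediate early genes past the filter, 4 were at least 1.5-fold higher in ectopic vOLCs than in control vOLCs, beside 18.0% of 5721 genes, and 0 of 6 were past 1.5-fold against control dOLCs, beside 11.1% of 6110 genes. Against control dOLCs their median log2 ratio was 0.53, beside 0.08 for all genes. Fos (0.54), Jun (0.52), Ier2 (0.57) and Dusp1 (0.58) were just short of 1.5-fold with intervals above 0. Those of Jund (−0.07) and Nr4a1 (0.23) covered 0. The part of these measures in the ratios of the members was not tested.

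**Figure D4:**
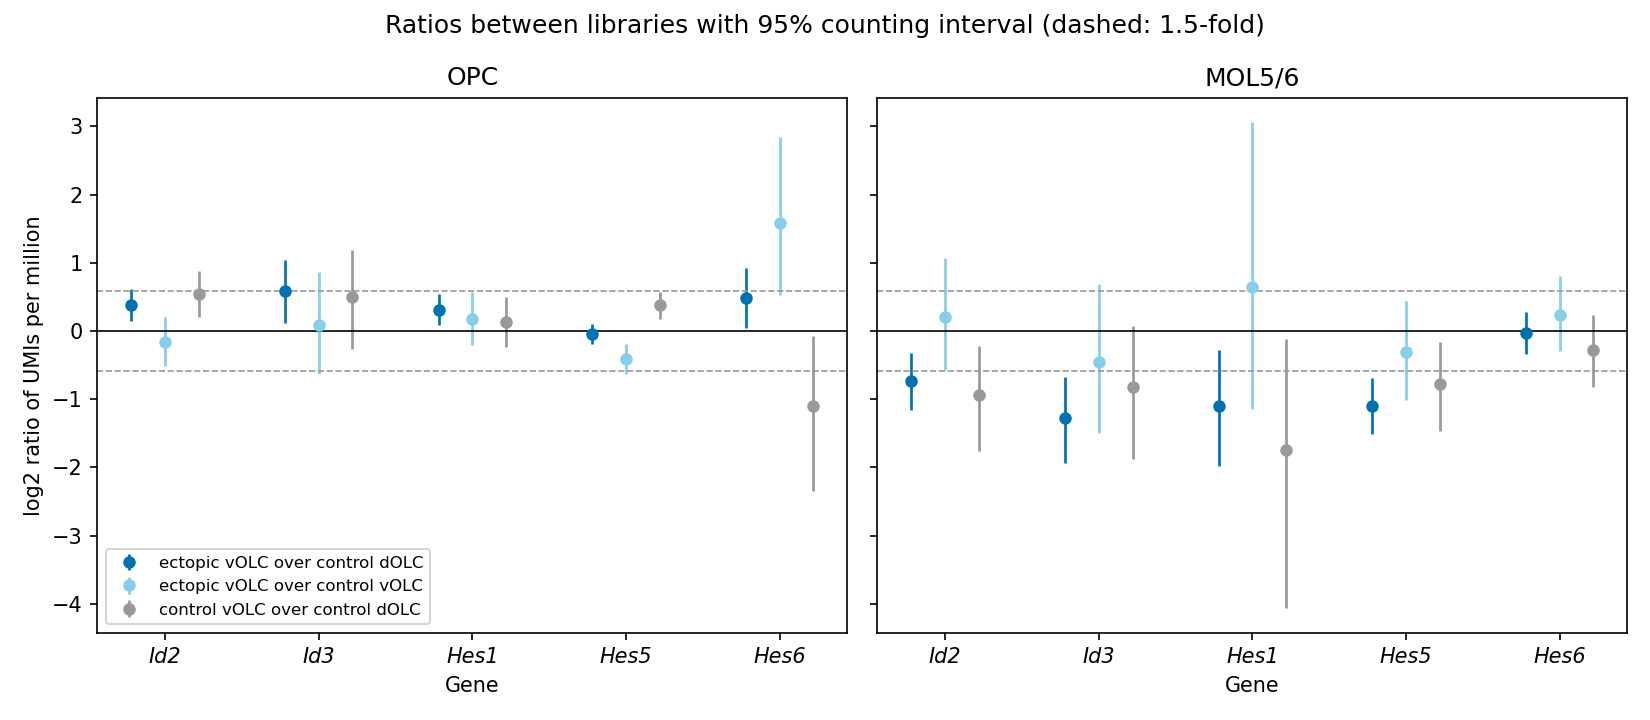
Log2 ratio of UMIs per 1000000 between libraries (vertical axis) for 5 members (horizontal axis) in OPCs (left) and MOL5/6 (right), by library pair (colours), with exact 95% counting intervals and dashed lines at 1.5-fold. In OPCs Hes6 of control vOLCs, on 8 UMIs, gives the outermost values, and in MOL5/6 both vOLC libraries lie below control dOLCs for Id2, Id3, Hes1 and Hes5.

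In MOL5/6, no member had a UMI in 10% of the cells, so 0 of 7 passed the filter. With the limit on cells lifted, a rule chosen after the data were seen, 21.7% of 10211 genes differed by at least 1.5-fold between ectopic vOLCs and control dOLCs, and of these 2220 genes 2036, or 91.7%, were lower in ectopic vOLCs. Of the 5 members with 50 UMIs, 4 were lower. With TMM scaling, 16.4% of the 10211 genes were past 1.5-fold, 435 higher and 1240 (74.0%) lower, and 3 of the 5 members were lower. Id2, at −0.57 with TMM and −0.55 with median of ratios scaling, was then short of 1.5-fold. The log2 ratio was −0.74 (−1.16 to −0.33) for Id2, −1.28 (−1.93 to −0.67) for Id3, −1.10 (−1.98 to −0.28) for Hes1 and −1.10 (−1.52 to −0.69) for Hes5, while Hes6 was at −0.03 (−0.34 to 0.27). With equal weight to MOL5/6a to d, whose shares differ between libraries, Id3 moved to −0.32 and the other 3 were between −1.09 and −0.66. With cells thinned to 1000 UMIs, Id2 was at −1.55, on 7 against 42 UMIs, and Hes1 at −2.29, on 1 against 10 UMIs.

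Control vOLCs lay below control dOLCs in the same genes, with −0.94 (−1.76 to −0.22) for Id2, −1.74 (−4.07 to −0.11) for Hes1 on 3 UMIs, −0.78 (−1.47 to −0.16) for Hes5 and −0.82 (−1.87 to 0.08) for Id3. By this rule 4 of 5 members differed, against 9.72% of 9816 genes. Between the vOLC libraries 0 of 3 members with 50 UMIs differed, against 19.3% of 9131 genes, and the intervals of all 7 members covered 0. Of the genes past 1.5-fold between the vOLC libraries, 85.4% were lower in ectopic vOLCs, and 64.3% with TMM scaling. With cells thinned to 1000 UMIs, Hes5 moved to 0.99 between the vOLC libraries and to −1.86 between the controls, on 2 UMIs in control vOLCs. The OPC markers in MOL5/6 moved the same way, Pdgfra being at 16.0 CPM in control dOLCs, 10.3 CPM in control vOLCs and 5.39 CPM in ectopic vOLCs and Ptprz1 at 33.8, 21.9 and 16.6 CPM. Their part in the levels of the members was not tested.

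Within OPCs, the variance of the thinned counts over cells was above their mean in all 3 libraries for Hes5, Id2 and Id3. For Hes1 it was so in control dOLCs and ectopic vOLCs. Up to 15 UMIs of Hes5 and 10 of Hes1 were found in 1 cell, while Id3 and Hes6 did not exceed 3. After thinning, the variance over the mean was 1.37, 1.58 and 1.58 for Hes5 and 1.66, 0.956 and 1.36 for Hes1, in control dOLCs, control vOLCs and ectopic vOLCs, where 1 would be expected of counting alone, and 1.09, 1.46 and 1.09 for Id2. It was 1.04, 1.24 and 1.33 for Id3, on 29, 7 and 11 thinned UMIs, and 0.960, 0.983 and 0.936 for Hes6. No interval was computed for these values. OPCs were then split by a UMI of 1 of 8 genes, among them Gpr17, Bmp4, Vcan, Pdgfra, Hes5, Hes1 and Id2, a step added after the data were seen. The splits, and the UMIs and CPM given for them, are of counts thinned to 1000 UMIs per cell. Of 95 such splits with at least 10 UMIs of the member, 5 had an interval that missed 0, and no split did so in more than 1 library. Where nothing differs, up to 5% of such intervals still miss 0. With a UMI of Gpr17, Id2 was lower in control vOLCs (log2 ratio −2.35, −4.72 to −0.63) but at 0.19 in control dOLCs and −0.55 in ectopic vOLCs, and Hes1 was lower in control dOLCs (−0.60, −1.15 to −0.080), with −0.46 in control vOLCs and −0.028 in ectopic vOLCs. With a UMI of Vcan, Hes5 was lower in control dOLCs (−0.45, −0.73 to −0.16), with −0.29 and −0.055 in the vOLC libraries. Control dOLCs with a Hes5 UMI held Id3 at 55.7 CPM against 23.0 CPM without (log2 ratio 1.28, 0.13 to 2.46) and Hes1 at 247 against 163 CPM (0.61, 0.14 to 1.07), and in ectopic vOLCs the same splits gave 0.56 (−1.66 to 2.54) and −0.13 (−1.02 to 0.70). In control vOLCs the split of Id3 rested on 6 against 1 UMIs, under the limit of 10, and gave 3.24 (0.20 to 8.76).

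The genes with the most similar course over 27 cluster-by-library sums of at least 20 cells, among 9539 genes, were sought by Pearson's r of log2(CPM + 1). For Hes5 they were Ednrb (0.937), Angptl1 and Mdk (both 0.935), for Hes1 Tspan7 (0.943), Cspg5 (0.940) and Hddc2 (0.933), and for Id2 Scg3 (0.947), F3 (0.944) and Gm44257 (0.943). Id3 was most like Hes5 itself (0.877). Id4 went with S1pr1 (0.856), Aldoc (0.854) and Igfbp2 (0.842), Hes6 less closely with Mif4gd (0.782), Hmgn3 (0.749) and Mphosph8 (0.741), and Id1 with Gm26825 (0.770), Klf4 (0.756) and Hspa1a (0.655). Between members, r was 0.890 for Id2 and Hes1, 0.840 for Hes1 and Hes5 and 0.823 for Id2 and Hes5, but 0.597 for Id2 and Hes6. The sums share libraries and depth, and these values are descriptions.

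The Notch pathway was read beside the Hes genes. Of 32 listed genes, 26 had 50 UMIs in OPCs and MOL5/6 together, of which 16 were at least 1.5-fold higher in OPCs in all 3 libraries and 2 (Tle1 and Aes) in MOL5/6, beside the 38.7% and 9.51% of all genes given above. The receptor Notch1 stood at 127, 142 and 121 CPM in OPCs, at 22.1, 34.4 and 13.4 CPM in COP/NFOL/MFOLa and at 6.06, 5.14 and 2.36 CPM in MOL5/6. The ligands Dll1 (42.3, 53.2 and 33.3 CPM) and Dll3 (68.2, 98.8 and 97.3 CPM), the latter known to act within its own cell, were in OPCs too. Nrarp, a feedback inhibitor that Notch itself induces, fell from 98.6, 129 and 125 CPM in OPCs to 4.01 CPM on 2 UMIs in COP/NFOL/MFOLa of control dOLCs and 0 UMIs in both vOLC libraries. These zeros allow up to 34.4 CPM in control vOLCs and 20.1 CPM in ectopic vOLCs. Rbpj, the CSL protein, was at 29.3, 40.5 and 23.3 CPM in OPCs and at 27.6, 23.6 and 21.0 CPM in MOL5/6, so it did not follow this course.

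Between conditions in OPCs, 17 of the 32 Notch genes passed the filter for ectopic vOLCs against control dOLCs and 0 differed by 1.5-fold, against 11.1% of all 6110 genes, with a median log2 ratio of 0.14 beside 0.08 for all genes. Against control vOLCs, 1 was higher (Aes) and 2 were lower (Dll1 and Tle4, the former with an interval that covered 0), or 3 of 17 against 27.8% of 5721 genes. Of the 8 other Hes and Hey genes, 4 had 50 UMIs in OPCs and MOL5/6 together, of which 3 (Hey1, Hey2 and Bhlhe40) were higher in OPCs in all 3 libraries, beside 38.7% of all genes, Hey1 at 44.9, 27.9 and 44.9 CPM against 4.51, 2.74 and 2.36 CPM in MOL5/6. Hes2, Hes3 and Hes7 had between 0 and 8 UMIs in all OPCs.

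Genes of the BMP pathway, which acts upstream of the Id genes, gave 12 of 17 higher in OPCs in all 3 libraries and 1, the inhibitor Smad7, higher in MOL5/6, beside 38.7% and 9.51% of all genes. The ligand Bmp7 was at 78.8, 122 and 86.5 CPM in OPCs and at 1.28, 0.342 and 0.662 CPM in MOL5/6. Bmp4 peaked in COP/NFOL/MFOLa, at 231, 677 and 221 CPM against 25.9, 30.4 and 19.1 CPM in OPCs, in the cluster where Id2 was at 8.02, 22.9 and 20.1 CPM. Smad7 ran opposite to Id2, with 63.6, 35.5 and 26.6 CPM in OPCs and 313, 321 and 194 CPM in COP/NFOL/MFOLa. In OPCs, 6 BMP genes passed the filter for ectopic vOLCs against control dOLCs, and 1 differed, Smad7, with a log2 ratio of −1.26 (−1.85 to −0.70), beside 11.1% of all genes. It passed the filter through control dOLCs alone, with a UMI in 15.5% of OPCs against 9.09% in ectopic vOLCs. Smad7 was also lower in OPCs of control vOLCs than in those of control dOLCs (−0.84, −1.74 to −0.056). Against control vOLCs, 1 of 4 BMP genes differed, the receptor Bmpr2 (−0.64, −1.43 to 0.19), beside 27.8% of all genes, and with TMM scaling it was at −0.57, short of 1.5-fold, which left 0 of 4. The myelin RNA in the same OPCs was also highest in control dOLCs.

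Among the E proteins and bHLH partners, through which Id proteins act, Tcf4 was at 674, 836 and 661 CPM and Tcf12 at 102, 104 and 111 CPM in OPCs, and both were still present in MOL5/6 at 379, 337 and 283 CPM and 116, 108 and 75.9 CPM. Olig1 and Olig2 were higher in OPCs but remained in MOL5/6, Olig2 at 1097, 1322 and 1503 CPM and at 349, 366 and 332 CPM.

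Of 9 other inhibitors of differentiation, 8 were higher in OPCs in all 3 libraries, beside 38.7% of all genes, and their levels fell at different steps. Sox5 fell from 75.0, 86.1 and 73.2 CPM in OPCs to 10.0 CPM, 0 UMIs (up to 34.4 CPM) and 13.4 CPM in COP/NFOL/MFOLa, as Hes5 did, and Zeb1 from 288, 296 and 293 CPM to 22.1, 11.5 and 20.1 CPM. Sox4 remained at 249, 195 and 167 CPM in COP/NFOL/MFOLa, near its OPC level of 237, 190 and 236 CPM, and Gpr17 was higher there than in OPCs, at 704, 1251 and 422 CPM against 414, 527 and 353 CPM. None of the 8 that passed the filter differed by 1.5-fold between OPCs of ectopic vOLCs and either control, beside 11.1% and 27.8% of all genes. Gpr17 against control vOLCs was just short of it, at −0.58 (−0.82 to −0.33).

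Of the drivers of differentiation, Nkx2-2 was the single listed gene past 1.5-fold in the same direction against both controls in OPCs, of 43 listed genes past both filters. It passed both through ectopic vOLCs alone, with a UMI in 18.2% of OPCs there, 9.38% in control dOLCs and 8.26% in control vOLCs. Over all 5667 genes past both, 2.86% were higher and 1.69% lower against both controls. It stood at 33.5 CPM in control dOLCs, 25.3 CPM on 10 UMIs in control vOLCs and 63.2 CPM in ectopic vOLCs, with log2 ratios of 0.92 (0.45 to 1.37) and 1.32 (0.36 to 2.44). Myrf, which drives myelin genes, and Nkx6-2 were lower in OPCs of ectopic vOLCs than of control dOLCs, with log2 ratios of −1.18 (−1.74 to −0.66) and −1.34 (−1.70 to −1.0). Against control vOLCs they gave −0.52 (−1.39 to 0.40) and 0.15 (−0.52 to 0.87), and OPCs of control vOLCs over those of control dOLCs gave −0.65 (−1.47 to 0.07) for Myrf and −1.49 (−2.15 to −0.90) for Nkx6-2. Both were higher in MOL5/6 than in OPCs in all 3 libraries.

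In MOL5/6, 6 of 25 listed genes past both filters were lower in ectopic vOLCs by 1.5-fold against both controls, and 0 were higher. Over all 5211 genes past both, 6.60% were lower and 0.518% higher, so that lower values prevailed there among all genes too. They were Tle3 (29.4, 29.1 and 12.0 CPM), a corepressor that Hes proteins recruit, the Notch protease Adam10 (62.5, 65.4 and 39.9 CPM), the receptor Bmpr2 (30.8, 28.8 and 13.2 CPM), the BMP transducer Smad5 (28.8, 23.6 and 14.8 CPM), Myrf (300.1, 305.8 and 189 CPM) and Tcf7l2 (30.6, 25.0 and 16.2 CPM), the 3 values of each being of control dOLCs, then control vOLCs, then ectopic vOLCs. Of these 6, Tle3, Bmpr2, Smad5 and Tcf7l2 had a UMI in between 6.62% and 8.63% of MOL5/6 cells of ectopic vOLCs and passed the filter through the control libraries alone, so nothing is read from the count. With equal weight to MOL5/6a to d, only Bmpr2 stayed past 1.5-fold against both (−0.59 and −0.67 on the log2 scale), and Tle3 moved from −1.29 and −1.28 to −0.21 and −0.34. TMM scaling raised the median of all genes by 0.17 against control dOLCs and by 0.15 against control vOLCs. With it, Tle3 (−1.12 and −1.13) and Bmpr2 (−1.05 and −0.97) stayed past 1.5-fold against both, whereas Adam10 (−0.48 and −0.57), Smad5 (−0.78 and −0.52), Myrf (−0.50 and −0.55) and Tcf7l2 (−0.75 and −0.48) did not.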

How the data were processed

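Droplet-based (10x 3′) single-cell RNA sequencing was done by the authors on sorted cells. They deposited raw UMI counts per gene and barcode, without normalization, and an annotation with library, cluster and a percent of mitochondrial counts for each kept cell. The submitters' processing notes name Cell Ranger 2.1.1, Seurat 3 and 4.0 and build mm10. The study's reporting summary gives the same Cell Ranger version for the single-cell data, whereas its methods text gives another. The 4 P0 samples were not analysed here. The transgenes are not among the listed genes. The values of 1 listed gene are not reported here.

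UMIs were summed over the annotated cells of a library and cluster and scaled to CPM. Levels carry exact Poisson, shares Clopper-Pearson and ratios conditional exact binomial intervals at 95%. A count of 0 that is compared as a level is given as up to 3 counts. Thinning to 1000 UMIs left out no cell. Doublets were not removed. Called means at least 1.5-fold among genes with 50 UMIs in both libraries together and a UMI in 10% of the cells of one. No test between conditions was possible. Alternatives were edgeR 4.0.16 TMM, DESeq2 1.42.0 size factors, no filter, the mean over cells, thinning, at most 10% mitochondrial counts, leaving out the 6% of barcodes with the highest Scrublet scores, leaving out cells with a UMI of another cell type marker, a fold of 2 and equal weight to MOL5/6a to d, with those added after the data were seen named as such. Scripts were tested on simulated data. The members and gene lists were chosen with earlier results of these data known. Named genes were the members, for each the 3 genes of highest Pearson r among those with 200 UMIs, and at most 5 genes a list past 1.5-fold in the same direction against both controls, and list genes with a pathway role could be named with their level. Single genes behind counts of 5 or fewer were named after their values were seen. Tools were R 4.3.3, Python 3.11.15, numpy 2.4.6, scipy 1.17.1, pandas 2.3.3, scanpy 1.11.5 and matplotlib 3.10.9.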

Additional observations from a re-analysis of the deposited data

Results flagged for a closer look

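Several members moved in opposite directions in OPCs and in MOL5/6 of the same library pair, with both counting intervals off 0. Whether the 2 cell types differ in these ratios was not tested, since each condition is 1 library. For ectopic vOLCs against control dOLCs, the log2 ratio was 0.38 in OPCs and −0.74 in MOL5/6 for Id2, 0.58 and −1.28 for Id3, and 0.31 and −1.10 for Hes1. For control vOLCs against control dOLCs, it was 0.55 and −0.94 for Id2 and 0.37 and −0.78 for Hes5. Not all of these ratios held under other processing. In OPCs, Id3 was at −0.028 with cells thinned to 1000 UMIs, and without cells that had a UMI of another cell type marker Id3 was at −0.31 and Hes1 at −0.039. With only cells that had a UMI of a marker near 0 in OPCs left out, Id3 was at 0.53 and Hes1 at 0.30. In MOL5/6, Id3 was at −0.32 with equal weight to MOL5/6a to d. All 5 pairs have control dOLCs as the lower library in OPCs and the higher in MOL5/6. In that library OPC markers were also higher in MOL5/6 (145 CPM against 90.4 and 81.4 CPM in the vOLC libraries) and oligodendrocyte markers were higher in OPCs (9749 CPM against 4355 and 4395 CPM), and their part was not tested.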

How the results depend on the processing

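No paired analysis was possible because no result comes from a test, and with a single library for every condition none could be left out. In OPCs of ectopic vOLCs against control dOLCs, the count of members past 1.5-fold went from 1 to 0 under TMM, median of ratios, the mean over cells, thinning to 1000 UMIs, at most 10% mitochondrial counts, leaving out the highest Scrublet scores, a fold of 2, and leaving out cells with a marker near 0 in OPCs (added after the data were seen). Id3 lay on the threshold, and its log2 ratio turned to −0.028 with thinning and to −0.31 without cells with a UMI of another cell type marker, which also took Hes1 to −0.039 and left 141, 12 and 47 OPCs. Without those cells Hes5 moved from −0.04 to 0.63, so that the count stayed at 1 with Hes5 in place of Id3. Against control vOLCs the count went from 1 to 3 with no filter and to 0 without such cells. With thinning it stayed at 1, with Hes5 (−0.61) in place of Hes6. For control vOLCs against control dOLCs it went from 1 to 3 with no filter, 0 with thinning and 2 without such cells. Leaving out such cells also moved Id2 from −0.16 to −0.75, Id3 from 0.09 to −1.31 and Hes5 from −0.41 to −0.082 against control vOLCs, and Id2 to 0.97 and Hes5 to 0.71 between controls. Leaving out only cells with a marker near 0 in OPCs kept 783, 109 and 304 OPCs. It gave −0.010 for Hes5, 0.53 for Id3 and 0.30 for Hes1 against control dOLCs. Against control vOLCs it gave −0.047 for Id2, 0.13 for Id3 and −0.31 for Hes5, and between controls 0.47 for Id2 and 0.30 for Hes5. Thinning moved Id3 to −0.80 against control vOLCs and Hes1 to −0.28 between controls, and in MOL5/6 it moved Id2 to −1.55 and Hes1 to −2.29 (ectopic vOLCs against control dOLCs) and Hes5 from −0.31 to 0.99 against control vOLCs and from −0.78 to −1.86 between controls. In MOL5/6 the counts of 0 became 4 (ectopic vOLCs against control dOLCs), 2 (against control vOLCs) and 5 (between controls) with no filter, and 4, 0 and 4 at 50 UMIs only, or 3, 0 and 4 at 50 UMIs with TMM or median of ratios scaling (added after the data were seen). Over the pathway lists, gene comparisons past 1.5-fold went from 21 to 5 in OPCs with a fold of 2, and in MOL5/6 from 17 to 10 under TMM and 5 with a fold of 2. The cause was not tested. Few UMIs per cell and 1 library per condition limit these values.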

Other observations

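The barcodes that the authors' filter removed (388, 114 and 288 in control dOLCs, control vOLCs and ectopic vOLCs) also held RNA of the members. Id2 stood at 45.4 CPM (38.7 to 52.8), 39.7 CPM and 47.3 CPM (40.2 to 55.3) in removed barcodes, against 31.2, 26.0 and 26.9 CPM over all kept cells. Hes5 stood at 59.2, 49.6 and 65.3 CPM, against 67.2, 58.0 and 45.5 CPM. In no member did the removed barcodes of ectopic vOLCs lie above both controls beyond the intervals.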
